A study of Mus musculus with 8 samples.

Results

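Dbp, Tef, Hlf, Nfil3, Bhlhe40, Bhlhe41, Usp2, Wee1 and Coq10b are 9 genes of 27453 listed in 8 mouse liver libraries. The circadian clock is known to drive their transcripts. They were chosen by name as clock output factors and clock-controlled genes after their read counts in the O-titled and Y-titled livers were known, so the choice was made on the contrast between these groups. Their differences between the groups are therefore given as a description, without a test. All 9 were listed with reads, and 8 had enough reads in at least 4 libraries to enter the fit over 6759 genes, while Bhlhe41 did not.

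The animals were C57BL/6JN mice, an inbred strain, and no transgene, mutation or drug was labelled. Native polyadenylated liver RNA was read by nanopore direct RNA sequencing, which passes each RNA molecule through a pore without a cDNA copy, so a molecule gives at most 1 read whatever its length. The O-titled group had 4 livers, 2 from females (replicates 3 and 4) and 2 from males (replicates 1 and 2), and the Y-titled group had the same make-up. The series text contrasts old mice of about 18 months with young mice of about 2 months, and a treatment label carried by every sample calls the old mice the treated group. The age labels go the other way, with 12 weeks on the O-titled and 80 weeks on the Y-titled samples. The groups are therefore called by their titles, and which of them was the older cannot be told from the labels. Each library came from a separate animal. The hour at which the livers were taken was not given in the sources used here.

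Mapped reads ran from 792004 to 2593200 in O-titled and from 545171 to 1722220 in Y-titled libraries. A floor of 3 reads corresponded to between 1.16 and 5.50 CPM (counts-per-million, here of mapped reads). Such floors, and the intervals on summed reads, take in the error of counting alone. Levels are given below in CPM scaled for library composition, and log2 folds have the O-titled group on top. Over all genes tested the median log2 fold was -0.00095. Hepatocyte markers such as albumin gave the largest of the marker sums in every library, at 74808 to 104501 CPM in O-titled livers and 81841 to 121183 CPM in Y-titled livers. Summed markers of stellate cells and fibroblasts stood at 219 to 272 CPM in O-titled livers and 148 to 199 CPM in Y-titled livers, without overlap, and 1 of the 5 tested passed the test between the groups. The other marker sums overlapped between the groups, namely Kupffer cells (556 to 1497 against 671 to 799 CPM), sinusoidal endothelium (267 to 358 against 225 to 324 CPM, with 1 of 7 tested passing between the groups), cholangiocytes (24.2 to 42.5 against 17.8 to 44.1 CPM), lymphocytes (8.06 to 21.7 against 10.1 to 13.9 CPM), neutrophils (6.72 to 37.3 against 0.919 to 15.3 CPM) and red blood cells (2062 to 2764 against 1689 to 4551 CPM), each O-titled against Y-titled. No listed marker with an entry was at 0 in all libraries. The part of cell composition in the results was not tested, and in bulk liver fewer cells of a type and less RNA per cell cannot be told apart.

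In the core loop of the clock, the proteins CLOCK and BMAL1 bind E-box sequences and switch on the Per and Cry genes, whose products hold CLOCK and BMAL1 back, so that transcription swings over the day. The same activators, together with the nuclear receptors of the loop, drive output factors. DBP, TEF and HLF, the PAR bZIP proteins, bind D-box sequences and activate genes of detoxification and lipid handling in liver, and NFIL3 binds the same sequences and represses. BHLHE40 and BHLHE41 compete for E-boxes as repressors, and other clock-controlled genes such as Usp2, Wee1 and Coq10b carry the rhythm into protein turnover, the cell cycle and mitochondria.

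RefSeq promoter windows of build GRCm38.p6, from 250 bases before to 50 bases after a start site, were at hand for 7 of the 9 genes and made 8 windows, since Tef has a pair of starts. Bhlhe40 and Wee1 had no entry. Both strands were searched for the E-box CACGTG, the D-box as TTATGTAA or TTACGTAA and the cAMP response element TGACGTCA. Of all 32851 promoter windows of this length, 7.15% held the E-box, 0.938% and 0.119% the D-box forms in that order, and 1.79% the cAMP response element. The E-box was found in 4 of the 8 windows, those of both Tef starts, Coq10b and Bhlhe41, and the windows of Dbp, Nfil3 and Usp2 held no match. The Dbp window is set on a start at 45705247, past that of Dbp-201 (45705088), which held most of the reads. Fewer than 250 bases before the Dbp-201 start were therefore searched. The Usp2 window lies at the start of the short Usp2-202 (44084939), and the region before the start of Usp2-201 (44067021), which held most of the reads, was not searched. The Coq10b window (chr1:55052520-55052819, + strand) held an E-box 78 bases before the start site and TTACATAA, the reverse strand of the D-box TTATGTAA, 162 bases before it. Tef start 1 (chr15:81802423-81802722, + strand) and Tef start 2 (chr15:81811164-81811463, + strand) held an E-box 127 and 138 bases before their own start. Tef start 1 is set at 81802673, and its whole window lies past the start of Tef-202 (81802421), which held most of the reads. Its E-box is thus within the span of Tef-202, and the region before Tef-202 was not searched. The Hlf window (chr11:90390868-90391167, - strand) held a cAMP response element 9 bases before the start. A match is a run of letters and not a measured binding site. Coq10b and both starts of Tef are printed because these windows held an E-box and their genes were higher in every O-titled than in every Y-titled liver, and Hlf because it differed least between the groups. Each is given from 5′ to 3′ on the gene's strand, with the matched motifs in capitals.
Coq10b: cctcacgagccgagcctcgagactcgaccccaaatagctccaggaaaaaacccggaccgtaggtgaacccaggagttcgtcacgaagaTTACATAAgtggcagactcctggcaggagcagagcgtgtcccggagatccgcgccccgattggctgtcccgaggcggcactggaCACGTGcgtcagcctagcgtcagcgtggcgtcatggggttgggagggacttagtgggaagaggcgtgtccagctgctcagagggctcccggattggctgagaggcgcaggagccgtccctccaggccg
Tef start 1: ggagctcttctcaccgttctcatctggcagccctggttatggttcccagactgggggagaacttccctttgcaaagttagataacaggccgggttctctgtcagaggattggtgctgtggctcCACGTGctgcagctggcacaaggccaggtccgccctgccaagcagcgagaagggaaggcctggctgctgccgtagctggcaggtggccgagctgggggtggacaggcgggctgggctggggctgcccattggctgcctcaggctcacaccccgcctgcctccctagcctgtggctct
Tef start 2: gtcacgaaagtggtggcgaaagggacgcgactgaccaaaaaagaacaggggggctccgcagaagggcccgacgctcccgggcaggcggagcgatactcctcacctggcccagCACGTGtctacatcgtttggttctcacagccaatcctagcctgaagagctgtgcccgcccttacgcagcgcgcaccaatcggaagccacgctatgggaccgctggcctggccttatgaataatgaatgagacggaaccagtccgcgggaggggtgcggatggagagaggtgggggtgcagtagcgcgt
Hlf: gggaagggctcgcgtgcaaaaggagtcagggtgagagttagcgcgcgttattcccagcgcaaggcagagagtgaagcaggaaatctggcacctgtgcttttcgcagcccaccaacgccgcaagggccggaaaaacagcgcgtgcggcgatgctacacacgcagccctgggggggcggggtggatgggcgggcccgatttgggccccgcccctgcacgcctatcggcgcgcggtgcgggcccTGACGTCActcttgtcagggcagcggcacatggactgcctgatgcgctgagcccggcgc

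Dbp and Tef were far higher in O-titled than in Y-titled livers, Hlf was level between them, and Nfil3, which acts against these 3 at D-boxes, was lower in O-titled livers. The repressor Bhlhe40 and the effectors Usp2, Wee1 and Coq10b were all higher in O-titled livers. The values of 6 genes, Dbp, Tef, Bhlhe40, Usp2, Wee1 and Coq10b, lay higher in every O-titled than in every Y-titled library, against 4.1% of all genes tested, 0 lay lower throughout, against 4.62%, and Hlf and Nfil3 overlapped. The genes were chosen with this contrast known, so nothing is read from these counts. The filter on low reads was met through O-titled libraries alone by Dbp, Usp2 and Wee1, through Y-titled libraries alone by Nfil3 and through both by the other 4.

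**Figure D1:**
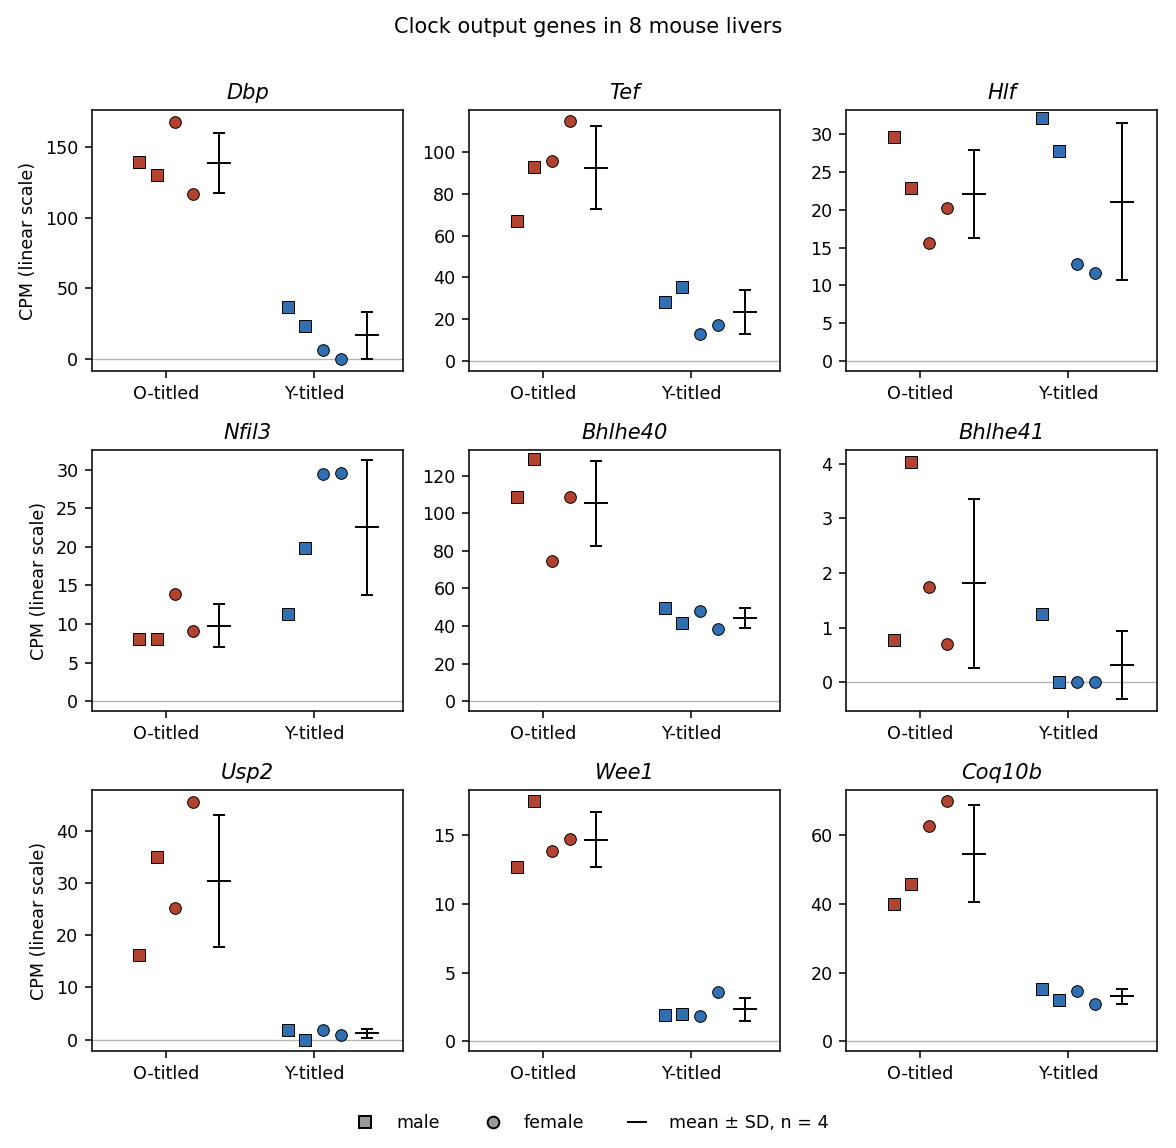
Level of each of the 9 genes in 8 livers, in CPM on a linear axis, with O-titled libraries left and Y-titled libraries right. Squares are males, circles females, and the bars give the mean and SD of 4 libraries. The 2 groups are apart for Dbp, Tef, Bhlhe40, Usp2, Wee1 and Coq10b and overlap for Hlf, Nfil3 and Bhlhe41.

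Dbp (ENSMUSG00000059824, mm10 chr7:45705088-45710203, + strand), the albumin D-box binding protein and the PAR bZIP factor with the widest daily swing in liver, had 139.5, 130.3, 168 and 117 CPM in O-titled replicates 1 to 4, against 37.1, 23.8, 6.43 and 0 CPM in Y-titled replicates 1 to 4. The O-titled livers were alike, while the Y-titled livers fell apart by sex, with the females at or near the bottom of the scale. In reads this was 363, 97, 193 and 167 in O-titled and 59, 12, 7 and 0 in Y-titled libraries. The 0 in Y-titled replicate 4 allows up to 2.61 CPM. The group means were 139 ± 21.4 CPM in O-titled livers and 16.8 ± 16.8 CPM in Y-titled livers (SD, n = 4 each), and the fitted log2 fold was 3.07 (SE 0.668). Summed over the libraries, 820 O-titled and 78 Y-titled reads gave a depth-corrected ratio of 7.62 (95% exact binomial interval 6.04 to 9.74). Dbp shares 737 bases with Sphk2 on the opposite strand, which had 164 reads in O-titled and 140 in Y-titled libraries. Whether the counting used the strand was not stated.

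Tef (ENSMUSG00000022389, mm10 chr15:81802421-81826863, + strand), the thyrotroph embryonic factor, had 66.9, 92.7, 95.5 and 115 CPM in O-titled replicates 1 to 4 and 28.3, 35.6, 12.9 and 17.1 CPM in Y-titled replicates 1 to 4. The lowest O-titled liver stood well above the highest Y-titled one. The means were 92.5 ± 19.7 and 23.5 ± 10.4 CPM in O-titled and Y-titled livers (SD, n = 4 each), with a log2 fold of 2.02 (SE 0.274). Each Y-titled library held between 14 and 45 reads of it.

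Hlf (ENSMUSG00000003949, mm10 chr11:90336536-90390895, - strand), the hepatic leukemia factor, did not follow its paralogs. It had 29.6, 22.8, 15.6 and 20.3 CPM in O-titled replicates 1 to 4 and 32.1, 27.7, 12.9 and 11.7 CPM in Y-titled replicates 1 to 4. The groups overlapped, and the low values were those of the females in both. The means were 22.1 ± 5.83 CPM in O-titled livers and 21.1 ± 10.4 CPM in Y-titled livers (SD, n = 4 each), with a log2 fold of 0.12 (SE 0.221).

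Nfil3 (ENSMUSG00000056749, mm10 chr13:52967209-52981073, - strand), the repressor also called E4BP4, had 8.07, 8.06, 13.9 and 9.10 CPM in O-titled replicates 1 to 4, against 11.3, 19.8, 29.4 and 29.6 CPM in Y-titled replicates 1 to 4. The Y-titled females were the highest, and the Y-titled male of replicate 1 lay below the highest O-titled liver, an overlap of this single library. The means were 9.78 ± 2.78 CPM in O-titled livers and 22.5 ± 8.76 CPM in Y-titled livers (SD, n = 4 each), with a log2 fold of -1.12 (SE 0.262). The counts were small, at 56 reads in O-titled and 93 in Y-titled libraries in all, and the depth-corrected ratio was 0.437 (95% exact binomial interval 0.308 to 0.615).

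The balance of activator to repressor transcripts at the D-box was taken within each library as the reads of Dbp, Tef and Hlf together over those of Nfil3, a ratio that does not depend on depth and serves to compare libraries. It was 29.2, 30.5, 20.1 and 27.7 in O-titled replicates 1 to 4 and 8.61, 4.40, 1.09 and 0.970 in Y-titled replicates 1 to 4. In the Y-titled females the repressor had about as many reads as the 3 activators together, and the Y-titled males lay between these and the O-titled livers. The mean was 26.9 ± 4.68 in O-titled and 3.77 ± 3.60 in Y-titled livers (SD, n = 4 each). The make-up of the activators follows from the levels given above, on the contrast the genes were chosen on, and is a description. Hlf gave 12.5%, 9.29%, 5.61% and 8.06% of the PAR bZIP reads in O-titled replicates 1 to 4, and 32.9%, 31.8%, 40.0% and 40.6% in Y-titled replicates 1 to 4, with the groups apart. Dbp gave 59.1%, 53.0%, 60.1% and 46.4% of them in O-titled and 38.1%, 27.3%, 20% and 0% in Y-titled libraries. The share of Tef overlapped, at 36.5 ± 7.19% in O-titled and 42.3 ± 12.6% in Y-titled livers (SD, n = 4 each).

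**Figure D2:**
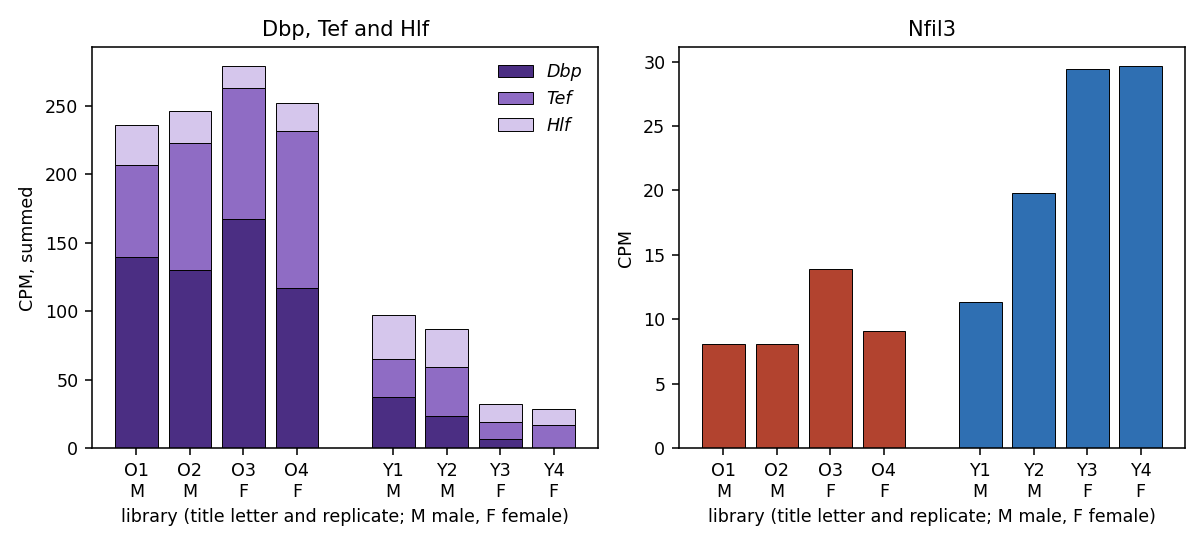
The left panel stacks the levels of Dbp, Tef and Hlf in each library and the right panel gives Nfil3, both in CPM from 0, with O-titled libraries left of Y-titled ones and M and F for male and female. The stack shrinks from O-titled livers over Y-titled males to Y-titled females while the Nfil3 bar is tallest in Y-titled females, where it reaches 29.4 and 29.6 CPM.

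Bhlhe40 (ENSMUSG00000030103, mm10 chr6:108660629-108666925, + strand), also called DEC1, a repressor that binds E-boxes and answers to light and feeding, had 109, 129, 74.7 and 109 CPM in O-titled replicates 1 to 4, against 49.7, 41.6, 47.8 and 38.6 CPM in Y-titled replicates 1 to 4. The groups were apart, and the Y-titled livers differed little among themselves. The means were 105 ± 22.5 and 44.4 ± 5.21 CPM in O-titled and Y-titled livers (SD, n = 4 each), with a log2 fold of 1.21 (SE 0.159). Its relative Bhlhe41 (ENSMUSG00000030256, mm10 chr6:145858243-145865558, - strand), or DEC2, had 2, 3, 2 and 1 reads in O-titled replicates 1 to 4 and 2, 0, 0 and 0 reads in Y-titled replicates 1 to 4. Every library was at or under the floor of 3 reads, so a difference was not detectable at this depth and no fold is given.

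Usp2 (ENSMUSG00000032010, mm10 chr9:44067021-44095627, + strand) encodes a ubiquitin-specific protease that removes ubiquitin from proteins of the clock and of the cell cycle. It had 42, 26, 29 and 65 reads in O-titled replicates 1 to 4, or 16.1, 34.9, 25.2 and 45.5 CPM, against 3, 0, 2 and 1 reads in Y-titled replicates 1 to 4. All 4 Y-titled libraries were at or under the floor, and the lowest O-titled liver was far above them. The fitted log2 fold of 4.29 (SE 0.482) rests on 6 Y-titled reads. The depth-corrected ratio of 162 O-titled to 6 Y-titled reads was 19.6, with a 95% exact binomial interval of 8.80 to 54.1.

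Wee1 (ENSMUSG00000031016, mm10 chr7:110122046-110143286, + strand) encodes the kinase that holds cells back from mitosis and is driven by the clock through E-boxes. It had 33, 13, 16 and 21 reads in O-titled replicates 1 to 4, or 12.7, 17.5, 13.9 and 14.7 CPM, against 3, 1, 2 and 4 reads in Y-titled replicates 1 to 4. The O-titled levels were close to each other, and 3 of the 4 Y-titled libraries were at or under the floor. The means were 14.7 ± 2.03 CPM in O-titled livers and 2.32 ± 0.846 CPM in Y-titled livers (SD, n = 4 each). The log2 fold was 2.56 (SE 0.376), and the depth-corrected ratio was 6.02 (95% exact binomial interval 3.11 to 13.0).

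Coq10b (ENSMUSG00000025981, mm10 chr1:55052770-55072702, + strand) encodes a mitochondrial protein that binds coenzyme Q. It had 40.0, 45.7, 62.5 and 70.0 CPM in O-titled replicates 1 to 4 and 15.1, 11.9, 14.7 and 10.8 CPM in Y-titled replicates 1 to 4. The Y-titled livers lay within a narrow band, and all O-titled livers were above it, the females highest. The means were 54.5 ± 14.1 and 13.1 ± 2.12 CPM in O-titled and Y-titled livers (SD, n = 4 each), with a log2 fold of 1.99 (SE 0.209). Its promoter window, printed above, is the one with both an E-box and a D-box. A processed pseudogene on the same strand shares 806 bases with the span of Coq10b and was not analysed here.

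Within each sex the same 6 genes were more than 2-fold higher in O-titled livers, beside 3.12% of all genes tested in females and 2.47% in males, and as they were chosen on this contrast nothing is read from that count. Values of O-titled over Y-titled females come first and of O-titled over Y-titled males second, each from 2 livers a group with the spread shared over all 8 libraries. The log2 folds were 5.43 in females and 2.04 in males for Dbp, 2.81 and 1.32 for Tef, and 2.38 and 1.55 for Coq10b. Bhlhe40 stood at 1.09 and 1.31 and Wee1 at 2.35 and 2.82, with the males above the females. Usp2 had 4.63 and 3.85, Nfil3 had -1.38 and -0.76, and Hlf had 0.56 and -0.16. In the Y-titled pair of each sex, Dbp had 7 reads in females, Usp2 had 3 in females and 3 in males, and Wee1 had 6 in females and 4 in males, so these folds rest on few reads.

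**Figure D3:**
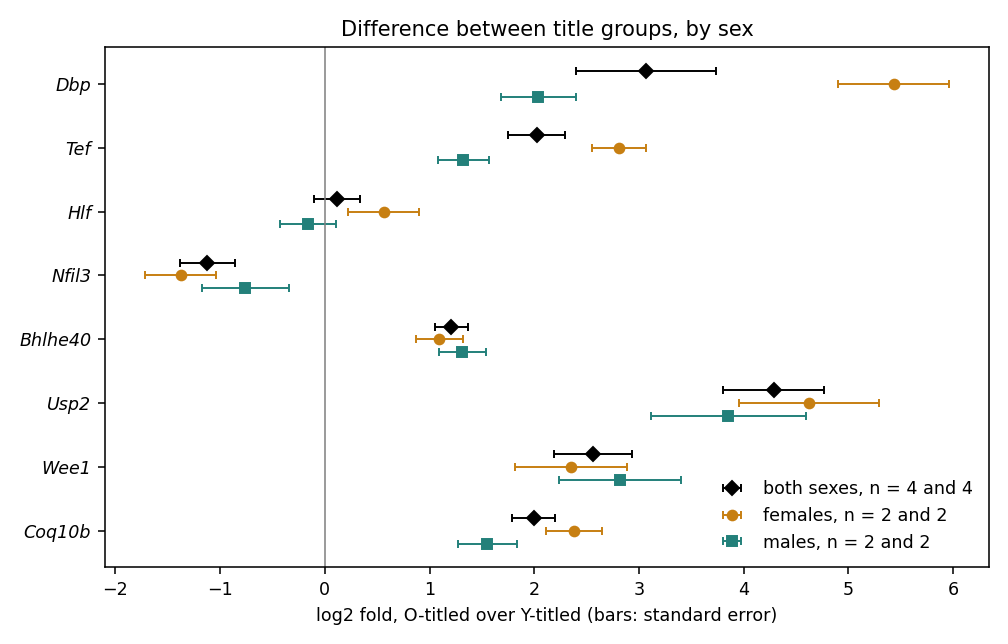
Log2 fold of O-titled over Y-titled livers for the 8 genes in the fit, for both sexes together (diamonds), females (circles) and males (squares), with bars of 1 standard error. Dbp and Tef stand at 5.43 and 2.81 in females and at 2.04 and 1.32 in males, whereas the bars of the sexes overlap for Nfil3, Bhlhe40, Usp2 and Wee1.

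Whether the fold of O-titled over Y-titled livers was of another size in females than in males was tested directly, and the test passed for 0 of the 8 genes at an adjusted p of 0.05 by edgeR, where 0.385% of all genes tested passed. The edgeR adjusted p was 0.138 for Dbp and 0.112 for Tef. At the adjusted threshold DESeq2 called 1, Dbp, and limma voom 0. The share of all genes that DESeq2 called is not given here, so nothing is read from its call. The difference between the sexes is built from the same O-titled and Y-titled values that were known when the genes were chosen. Dbp also entered the fit through its O-titled libraries, so the values are a description. The fold in females exceeded that in males by 3.39 on the log2 scale for Dbp (95% interval 1.72 to 5.07) and by 1.48 for Tef (95% interval 0.70 to 2.27). The intervals of the other 6 genes included 0, from -1.75 to 0.51 for Nfil3 and from -0.05 to 1.70 for Coq10b, and were widest for Usp2, from -2.41 to 3.95.

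Females and males were also compared across the title groups, a contrast that played no part in the choice of the genes. Hlf was the 1 of 8 that passed, against 2.96% of all genes tested. It had 15.6, 20.3, 12.9 and 11.7 CPM in the females (O-titled replicates 3 and 4, then Y-titled replicates 3 and 4) and 29.6, 22.8, 32.1 and 27.7 CPM in the males (O-titled replicates 1 and 2, then Y-titled replicates 1 and 2). Every female lay below every male. The means were 15.1 ± 3.84 CPM in females and 28.1 ± 3.92 CPM in males (SD, n = 4 each), with a log2 fold of -0.90 (95% interval -1.37 to -0.44, edgeR adjusted p = 0.0327). The call was lost with DESeq2 (adjusted p = 0.102) and when any 1 of 6 libraries was left out, O-titled replicates 1 and 3 and each Y-titled replicate, with adjusted p up to 0.204 without Y-titled replicate 1, while the direction was kept.

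Nfil3 had 13.9, 9.10, 29.4 and 29.6 CPM in the females and 8.07, 8.06, 11.3 and 19.8 CPM in the males, in the same order of libraries. The sexes overlapped, with a log2 fold of 0.83 (95% interval 0.27 to 1.39, edgeR adjusted p = 0.125). Coq10b came next, at 0.45 (95% interval 0.04 to 0.86, adjusted p = 0.346). For the others the interval included 0. It ran from -0.59 to 0.07 for Bhlhe40, from -0.57 to 0.60 for Tef, from -0.57 to 0.75 for Wee1, from -0.08 to 1.40 for Usp2 and from -2.15 to 0.99 for Dbp, the widest.

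**Figure D4:**
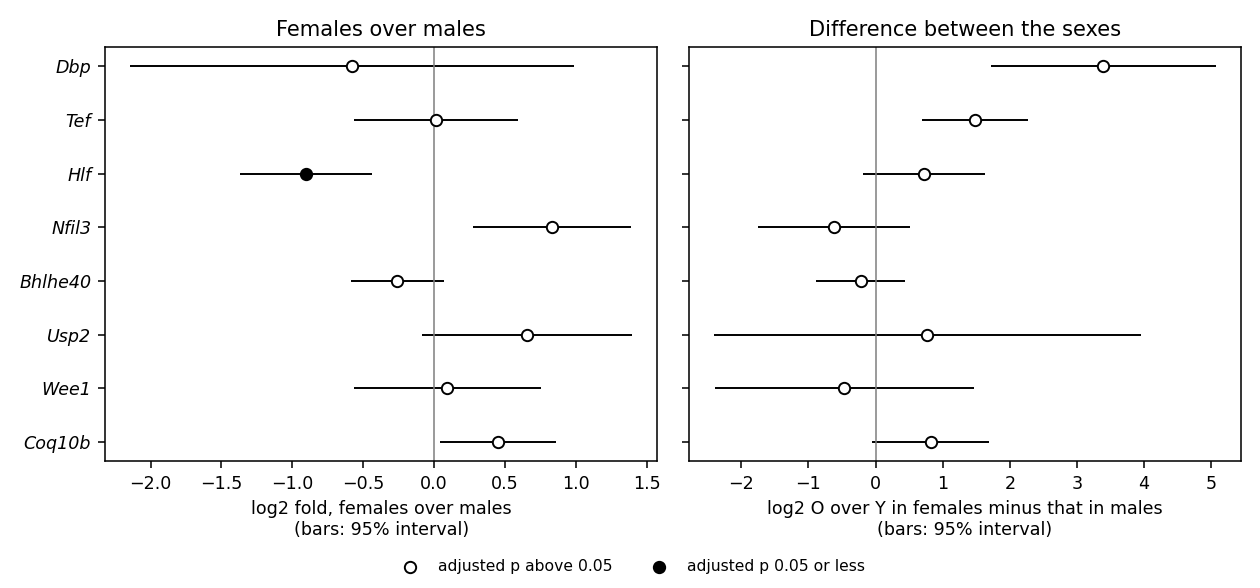
The left panel gives the log2 fold of females over males and the right panel the log2 fold of O-titled over Y-titled livers in females minus that in males, for 8 genes, with 95% intervals. Filled points passed at an adjusted p of 0.05, which Hlf did on the left at -0.90, and open points did not.

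Reads of 3 genes were spread over more than 1 transcript. Dbp-201, of 1837 nt and coding for 325 amino acids, took 721 of 820 reads in O-titled and 68 of 78 reads in Y-titled libraries, or 87.9% (95% exact binomial interval 85.5 to 90.1%) and 87.2% (77.7 to 93.7%). The shorter Dbp-203 and Dbp-204 shared the rest in both groups. Tef-202, which begins at 81802421 on mm10, had 448 of the 517 reads in O-titled and 78 of the 96 in Y-titled libraries, and Tef-201, which begins at 81811414, the position of Tef start 2 above, took the rest. The mean share of Tef-202 over libraries was 86.4 ± 3.67% in O-titled and 81.5 ± 5.42% in Y-titled livers (SD, n = 4 each), and the groups overlapped. Usp2-201, which codes for the long form of 619 amino acids, took 138 of 162 reads in O-titled libraries, and Usp2-202, for the form of 396 amino acids, took 23. With 5 and 1 reads of these forms in Y-titled libraries, a shift between them was not detectable at this depth. The other 6 genes had reads on a single transcript each. Reads assigned to Tef-202, of 4403 nt, averaged 1758 to 2190 nt in O-titled and 1993 to 2287 nt in Y-titled libraries. Those of Usp2-201, of 3867 nt, averaged 1397 to 1809 nt in O-titled libraries. With reads this short, the shares rest on how reads were assigned and do not measure which start was used.

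Taken over all reads of a gene, mean read lengths were below the transcript length, and how partial reads were assigned to transcripts was not given in the sources used here. An exception within a gene was Dbp-203, of 1252 nt, whose 4 reads in Y-titled replicate 1 averaged 1548 nt, longer than the transcript they were assigned to. Pooled over a group's reads of a gene, read length averaged 69.3% of the transcript for Dbp in O-titled and 75.2% in Y-titled livers. The pooled values were 71.8% and 72.4% for Coq10b and 48.6% and 53.4% for Tef, O-titled before Y-titled. For the long transcript of Hlf they were 27.6% and 26.2% in the same order. Tef reads averaged 2073 ± 181 nt in O-titled and 2352 ± 183 nt in Y-titled livers, and Bhlhe40 reads 1743 ± 91.4 nt and 2034 ± 198 nt in the same order (SD, n = 4 each), with values overlapping between the groups for both. Reads of Coq10b averaged 1211 ± 107 nt in O-titled and 1178 ± 261 nt in Y-titled livers. Over all genes the mean read length ran from 1156 to 1235 nt per library.

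Of 17 genes of the core loop, 10 were tested between the title groups, of which 3 rose in O-titled livers, 0 fell and 7 did not pass, with a median log2 fold of 0.40. Over all genes tested 2.09% rose and 1.92% fell. The 3 were the repressor genes Per1 (18.7 ± 6.00 against 6.13 ± 2.66 CPM, log2 fold 1.52, adjusted p = 0.0174) and Per2 (13.4 ± 2.76 against 2.66 ± 1.58 CPM, log2 fold 2.06, adjusted p = 0.00560), and Nr1d2, for the nuclear receptor REV-ERBβ (59.2 ± 10.9 against 28.2 ± 7.23 CPM, log2 fold 1.02, adjusted p = 0.00750), O-titled against Y-titled (SD, n = 4 each). Per1 lost its call with limma voom (adjusted p = 0.0667) and without O-titled replicate 4, Y-titled replicate 1 or Y-titled replicate 3 (adjusted p 0.0722, 0.0608 and 0.0901 in that order). In Y-titled replicates 1 to 4, Per1 had 8, 3, 4 and 11 reads and Per2 had 8, 1, 2 and 2. Both met the filter on low reads through O-titled libraries alone, so their values and the count of 3 are a description. Among the 7 genes of the loop with too few reads to be tested, Arntl, which encodes BMAL1, had 3, 0, 1 and 1 reads in O-titled replicates 1 to 4 and 11, 8, 17 and 13 reads in Y-titled replicates 1 to 4. Ciart, a repressor of CLOCK and BMAL1, had 22, 9, 15 and 17 reads in O-titled and 1, 0, 0 and 0 reads in Y-titled libraries, a depth-corrected ratio of 45.7 (95% exact binomial interval 7.91 to 1832). Both were named after their values were seen. Nr1d1, the paralog of Nr1d2, averaged 42.9 ± 18.1 CPM in O-titled livers, against 69.1 ± 11.2 CPM in Y-titled livers, and did not pass (log2 fold -0.72, adjusted p = 0.129), and it too was named after its values were seen.

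A list of 11 genes tied to Dbp, Tef and Hlf in rodent liver was tested in full. Of these 3 rose in O-titled livers, 0 fell and 8 did not pass, with a median log2 fold of 0.45. Over all genes tested 2.09% rose and 1.92% fell. The list was chosen with earlier results of these data known, so its counts and p-values are a description. Cyp7a1, the enzyme that opens the classic route from cholesterol to bile acids, stood at 115 ± 56.0 CPM in O-titled livers and 22.7 ± 9.33 CPM in Y-titled livers (log2 fold 2.21, adjusted p = 0.0379). It lost its call without each of 5 libraries, O-titled replicates 1 and 2 and Y-titled replicates 2, 3 and 4, with adjusted p up to 0.145. Por, the electron donor of the cytochrome P450 enzymes, stood at 399 ± 199 CPM in O-titled livers and 149 ± 41.4 CPM in Y-titled livers (log2 fold 1.34, adjusted p = 4.25e-05). Alas1, the rate-limiting enzyme of heme synthesis, stood at 369 ± 147 CPM in O-titled livers and 127 ± 85.7 CPM in Y-titled livers (log2 fold 1.66, adjusted p = 0.0180), with values that overlapped between the groups. Without O-titled replicate 4, Y-titled replicate 1 or Y-titled replicate 3 its adjusted p was 0.0774, 0.0648 or 0.0763. Without Y-titled replicate 3 only Por of the list passed. Por was also higher in females than in males (log2 fold 0.97, adjusted p = 6.21e-04), so sex moves with its level as well.

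**Figure D5:**
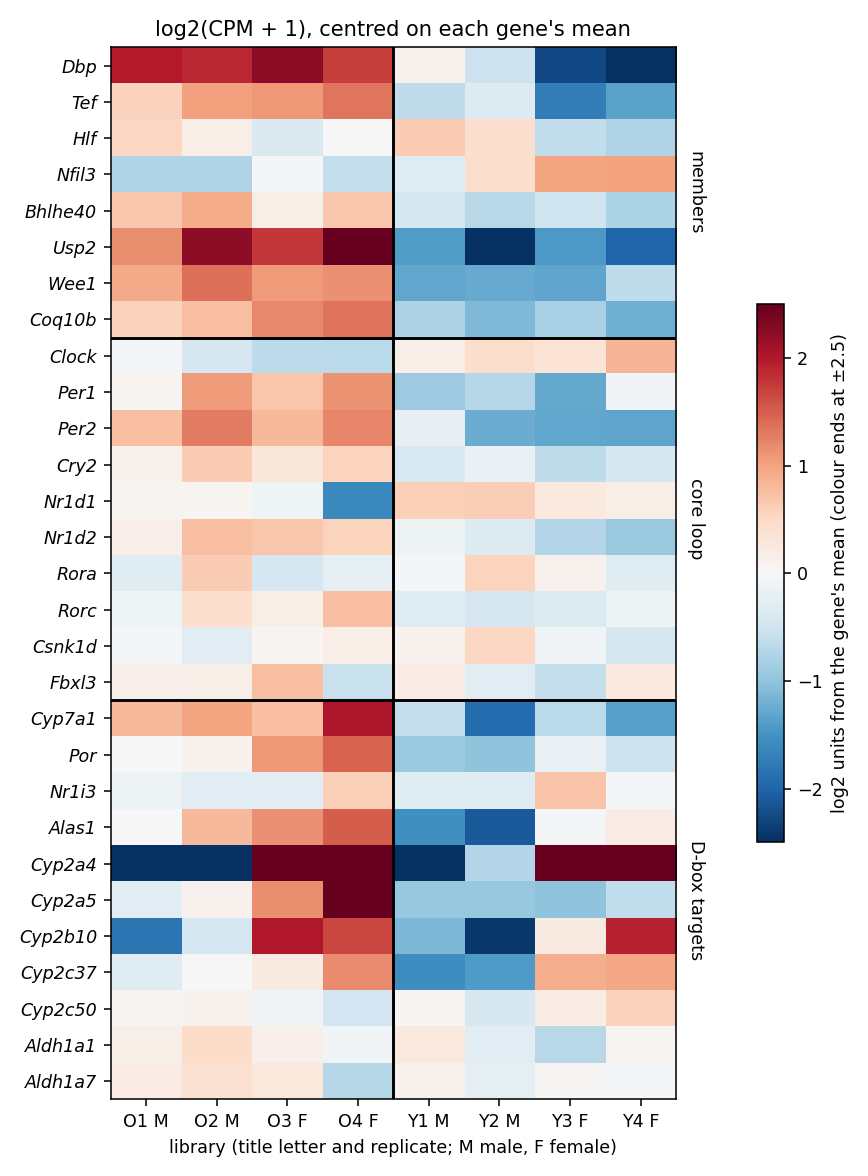
Level of the 8 output genes in the fit, the 10 tested core loop genes and the 11 D-box target genes in each library, as log2(CPM + 1) minus the gene's mean over the 8 libraries, with O-titled libraries left of the line and Y-titled libraries right of it. Red is above and blue below the gene's own mean. Tef, Usp2, Wee1, Coq10b and Cyp7a1 change colour at the line, while Cyp2a4 and Cyp2b10 mainly separate females from males.

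Further lists took in genes that follow systemic cues, genes that cycle in many organs, and genes tied to Coq10b, Usp2 or Wee1. These lists too were chosen with earlier results of these data known, so their counts and p-values are a description. The shares over all genes tested were 2.09% for a rise and 1.92% for a fall. Of 12 genes known to follow body temperature and other systemic cues in mouse liver, 11 were tested, of which 2 rose and 0 fell, with a median log2 fold of 0.02. They were the cold-inducible RNA-binding protein gene Rbm3 (104 ± 11.5 CPM in O-titled livers and 40.0 ± 11.9 CPM in Y-titled livers, log2 fold 1.38, adjusted p = 1.13e-04) and Noct, a rhythmic gene also called nocturnin (80.1 ± 17.9 and 31.6 ± 4.08 CPM in the same order, log2 fold 1.34, adjusted p = 1.67e-04). Of 12 genes that cycle in many mouse organs, 9 were tested, of which 2 rose and 0 fell, with a median of 0.07. They were Tspan4, for a tetraspanin (log2 fold 1.31, adjusted p = 1.20e-04), and Nampt, for the rate-limiting enzyme of NAD salvage (log2 fold 0.96, adjusted p = 0.00646), whose values overlapped between the groups. Nampt was also higher in females than in males (log2 fold 0.76, adjusted p = 0.0358). Of 12 genes of coenzyme Q synthesis and binding besides Coq10b, 10 were tested, of which 0 rose and 1, the kinase-like Coq8a, fell (135 ± 30.3 CPM in O-titled livers and 276 ± 44.3 CPM in Y-titled livers, log2 fold -1.06, adjusted p = 2.46e-04). Coq10a, the paralog of Coq10b, averaged 22.4 ± 6.59 CPM in O-titled livers, against 16.8 ± 7.66 CPM in Y-titled livers, and did not pass (log2 fold 0.43, adjusted p = 0.537). Of 8 relatives and substrates of Usp2, all tested, 0 passed in either direction (median 0.17). Of 8 other cell cycle genes listed for Wee1, Ccnd1 was the 1 gene with enough reads, and it did not pass (log2 fold 0.40, adjusted p = 0.340). Ccnd1 is also on the Usp2 list and is not a direct partner of Wee1, and the direct partners listed had too few reads.

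Likeness of profile was measured as the root mean square distance between log2 CPM profiles over the 8 libraries, each centred on its own mean, which is 0 for profiles that run in parallel. Genes that share the title difference come out close by this measure, and it says nothing of shared function or control. Among the output genes the closest pairs were Coq10b and Wee1 (0.39), Coq10b and Tef (0.43) and Tef and Wee1 (0.50), and the most distant was Dbp and Nfil3 (2.86). Outside them, among 6599 candidates, the closest to Tef were Upp2 (0.30), a uridine phosphorylase of liver, and Gnat1 (0.34), where the median candidate lay at 1.12. Per2 was near both Coq10b (0.34) and Wee1 (0.42), and Fam47e was the closest to Wee1 (0.35). Nfil3 was closest to Ndrg1 (0.15) and Rapgef4 (0.22), Hlf to Aatf (0.18) and Myo6 (0.22), and Bhlhe40 to Hamp (0.19), which encodes the iron hormone hepcidin, and Card19 (0.21). Usp2 was closest to Cyp7a1 (0.69) and the vitamin transporter gene Slc5a6 (0.70). Dbp had no near neighbour, with the neutrophil protease gene Prtn3 at 1.07 and the acute phase gene Saa1 at 1.37, and its profile includes a library at 0 reads.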

How the data were processed

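The deposited tables hold whole-number counts of reads per transcript, 53983 transcripts of 27453 genes, together with the lengths of the assigned reads. Per the submitters' processing notes, minimap2 2.24, the mouse build mm10 and DESeq2 were used, without a role stated for DESeq2. How reads were counted, against which annotation and with what rule for ambiguous reads is not given in the sources used here. Counts of a library sum to the mapped reads that its file states. Transcript positions are those of GENCODE M21 on mm10.

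Transcript counts were added up per gene and fitted in edgeR 4.0.16 (R 4.3.3), keeping genes by filterByExpr with group and a minimum count of 10 (about 8.85 CPM), scaling by the trimmed mean of M values, the robust quasi-likelihood test and Benjamini-Hochberg adjustment over the 6759 genes left, at 0.05. O-titled over Y-titled folds had sex as a covariate, female over male folds the title, and within-sex folds and their difference came from a fit of 4 groups. Standard errors come from each fold and its F value. Replicates are separate animals, as 8 different animal numbers in the files show, and p-values measure the spread between these animals. Ratios of summed reads carry exact binomial intervals at 95%.

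The genes and lists were chosen with earlier results of these data known, and lists are described by counts and medians beside those of all genes tested. Named are the 9 genes, the members of other lists that passed, and the 2 closest profiles of each gene, leaving out predicted genes and pseudogenes. A close profile of Coq10b is not reported here. Alternatives were size factors of DESeq2, no filter, DESeq2 1.42.0, limma voom (limma 3.58.1), a replicate block, thinning of all libraries to the smallest, and leaving out each library. The edgeR steps were tested on simulated data.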

Additional observations from a re-analysis of the deposited data

Results flagged for a closer look

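Among 61 sets of 4 libraries, 4 held a library set apart from the other 3 by a gap past Dixon's 95% critical value, where chance sets apart about 1 in 20. Bhlhe41 had 1.26 CPM in Y-titled replicate 1 and 0 in the other Y-titled libraries, which is 2 reads against none. Wee1 had 3.59 CPM in Y-titled replicate 4 and 1.84 to 1.98 CPM in the others, a matter of 4 reads. Cyp7a1 had 198 CPM in O-titled replicate 4 and 80.7 to 95.4 CPM in the other O-titled livers. Per2 had 5.04 CPM in Y-titled replicate 1 and 1.80 to 1.98 CPM in the other Y-titled livers.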

How the results depend on the processing

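Over all alternatives 895 values were recomputed, of which 824 were classed as the same, 0 as reversed, 20 lost and 5 gained a call, and 46 moved further. The same meant a count of similar size, a move of less than the spread, or a tested fold on its side of the threshold. A change of sign was not classed as reversed where no fit passed or the main fold was within the spread. The Usp2 difference between the sexes, at 0.77, thus reached -3.12 without a library and was classed as the same. The folds of the 8 output genes between the title groups kept their sign in 107 of 108 values, the exception being Hlf at -0.01 without a single library. Of 271 genes that passed between the title groups, counts were 600 with no filter on low counts, 138 with all libraries thinned to the smallest and 154 to 294 when a library was left out. Output genes more than 2-fold higher numbered 6 in each sex and 3 in each after thinning, where Usp2 and Wee1 had too few reads to be fitted and Bhlhe40 in females (log2 fold 0.98) and Tef in males (0.93) were under 2-fold, and 5 to 6 in females and 6 in males when a library was left out. Between females and males 200 genes passed, against 401 with no filter, 110 after thinning and 125 to 217 without a library. The 1 output gene, Hlf, became 0 with DESeq2 and 0 to 1 without a library. The count was also 0 after thinning, where Hlf had too few reads to be fitted. For the difference between the sexes 26 genes passed, against 100 with no filter, 15 with limma voom, 15 after thinning and 8 to 45 without a library, and the 0 output genes became 2 with no filter (Dbp and Tef), 1 with DESeq2 (Dbp) and 0 to 1 without a library. In the core loop the 3 calls became 7 with no filter, 1 after thinning and 3 to 5 without a library. The 3 D-box target calls ranged from 1 to 4 without a library, and with no filter the 2 cue-driven and the 2 widely cycling calls became 4 each. Folds in 1 sex rest on few Y-titled reads: Dbp in females was 10.53 without Y-titled replicate 3, and Usp2 in males 7.76 without Y-titled replicate 1. Where no cause is named it was not tested. Replicate numbers are shared by the title groups and go with sex, and beyond sex same-numbered libraries did not deviate together (r = -0.06 in males and -0.03 in females), so they were not taken as pairs. With the replicate number as a block 184 genes passed and Cyp7a1 did not (adjusted p = 0.0519), and 6 output genes were again more than 2-fold higher.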
